A study of Mus musculus with 16 samples.

Results

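The genes described here encode the proteins of the cytosolic ribosome. They were chosen by name and by signal: a probe set had to carry a single gene symbol made of Rpl or Rps and digits, with at most 1 letter a, x or l behind (Rplp0, Rplp1, Rplp2, Rpsa and Rpl3l were added and pseudogene symbols were left out), and had to lie above the median of its array in at least 8 of 16 arrays. Where several probe sets of a gene passed, the one with the highest mean signal was kept. This left 52 genes of 64 with such a probe set, 31 of the large subunit and 21 of the small subunit, among 13601 genes tested in all. The RefSeq annotation holds 81 protein-coding genes that the name rule covers. Of these, 19 had no probe set with a single symbol, and 12 of the 19 are found only on probe sets that carry several symbols, which were not used to name a gene.

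RNA came from the gastrocnemius, a fast calf muscle, of 16 male FVB/n mice aged 16 weeks, each measured on 1 array after 8 weeks on a diet with 58% fat. The 8 deletion mice carried the Mx1-Cre transgene and floxed FoxO1, FoxO3 and FoxO4 alleles (Mx1-Cre+;FoxO1,3,4L/L), and the 8 controls were littermates with the same floxed alleles and no Cre (MxCre-;FoxO1,3,4L/L), which the labels also call wild type. The comparison asks what loss of these forkhead transcription factors, which the labels describe as directed to the endothelium, changed in the muscle of mice on the high-fat diet. Per the labels, the mice received 3 injections of pI:pC at 4 to 5 weeks of age, with no separate statement for the controls. This synthetic double-stranded RNA switches on the Mx1 promoter, an interferon-responsive promoter that is not limited to endothelial cells. All deletion mice carried Cre and no control did, so an effect of Cre itself cannot be told apart from that of the deletion. The same would hold for pI:pC if the controls were not injected.

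The values are expression on a log2 scale. Differences are deletion minus control and come from a limma fit to all genes, and a gene was called changed at an adjusted p under 0.05 (Benjamini-Hochberg over 13601 genes). In that fit 249 genes (1.83%) changed. For the targeted genes themselves, Foxo1 averaged 7.36 ± 0.36 in deletion mice and 7.29 ± 0.06 in controls, Foxo3 5.88 ± 0.40 and 5.38 ± 0.16, and Foxo4 7.18 ± 0.26 and 7.42 ± 0.15 (SD, n = 8 each), with adjusted p-values from limma of 0.804, 0.0762 and 0.236. Single mice ran from 7.05 to 8.23 in the deletion group and from 7.22 to 7.38 in controls for Foxo1, from 5.42 to 6.66 and from 5.19 to 5.66 for Foxo3, and from 6.77 to 7.48 and from 7.26 to 7.73 for Foxo4. Where these probes lie relative to the floxed exons was not analysed here, so the values check no label. All 13 markers of skeletal muscle fibres passed the signal filter, with a list mean of 12.56 to 12.70 in deletion mice and 12.54 to 12.69 in controls, and none of the 13 changed.

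Each cytosolic ribosome joins a large subunit, which forms peptide bonds, and a small subunit, which reads the messenger RNA, and its proteins are made in step with each other because each particle needs nearly all of them. Their messenger RNAs begin with a run of pyrimidines, the terminal oligopyrimidine tract, through which mTOR signalling and the binding protein Larp1 control their translation. In skeletal muscle the core protein Rpl3, which lies next to the peptidyl transferase centre, is largely replaced in adult fibres by the striated muscle paralog Rpl3l. Ribosomal protein genes have left many processed copies across the mouse genome, which resemble their messenger RNAs closely.

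Of the ribosomal protein genes, only Rpl3 was called in this fit, and it was higher in deletion mice. That is 1 of 52, or 1.92%, beside 1.83% of all genes tested (1.53% counting higher genes alone). None was lower at that threshold, against 41 of all genes (0.301%). At an unadjusted p under 0.05, 5 of the 52 were higher and 1 was lower, and the shares over all genes were 10.5% and 6.82%. For 40 of the 52 (76.9%) the difference was above 0, against 50.2% of all genes, but the sizes were small. The median difference was 0.0744, with quartiles at 0.0195 and 0.112, and that of all genes was 0.000746. The 31 large-subunit genes had a median difference of 0.0720 with 24 above 0, and the 21 small-subunit genes 0.0827 with 16 above 0. Without Rpl3, the differences of the other 51 genes ran from -0.34 for Rps16 to 0.21 for Rplp1, with a median of 0.0720.

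The median standard error of the 52 differences was 0.0835, and 46 of the 52 intervals (95%) included 0. Only the intervals of Rpl3 and Rps16 reached 0.5 in either direction.

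**Figure D1:**
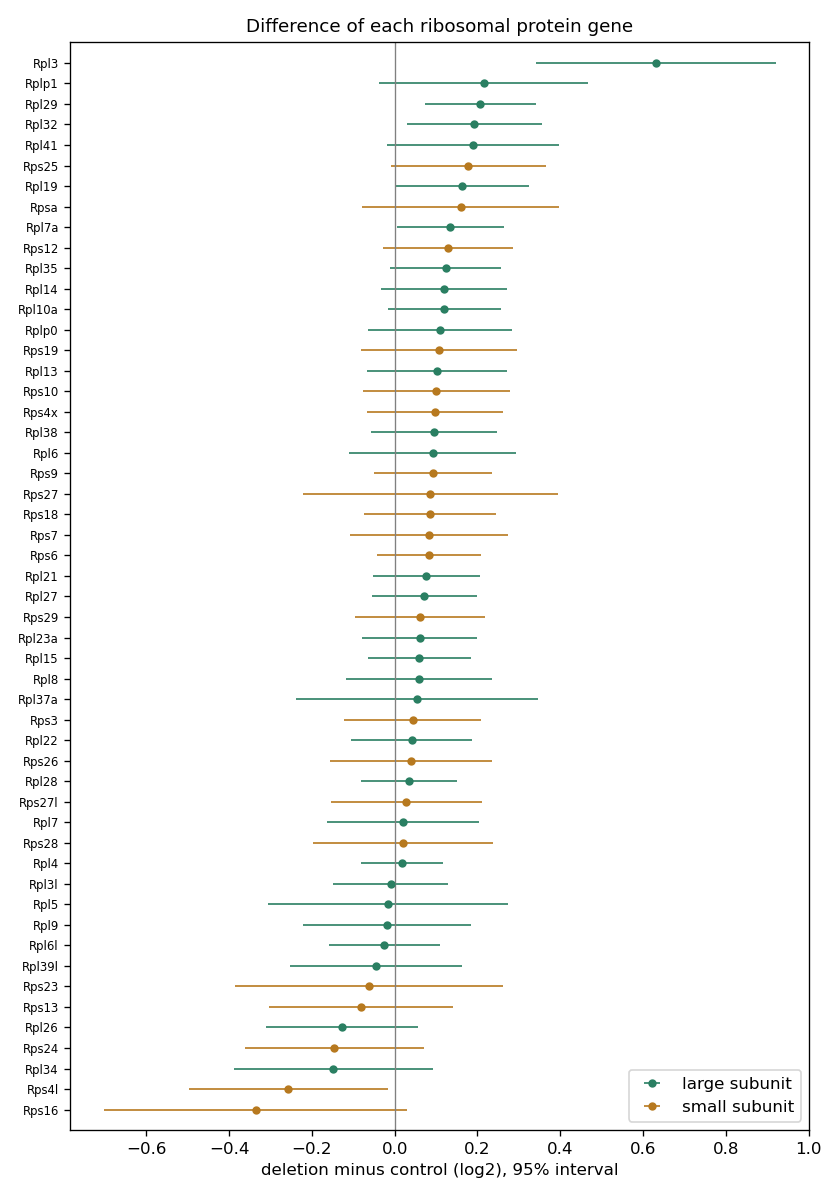
Difference between 8 deletion and 8 control mice (log2, deletion minus control, horizontal axis) of each of the 52 ribosomal protein genes, ordered by size, with the 95% interval of the limma fit as a line and the subunit as colour. Rpl3 stands at 0.63, apart from the other 51 genes, which lie between -0.34 and 0.21.

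Rpl3 had a lowest value of 7.98, a median of 8.53 and a highest of 9.15 in deletion mice, against 7.43, 7.96 and 8.24 in controls. In 7 of the 8 deletion mice it lay above every control, and deletion mouse 8, at 7.98, lay inside the control range. Its mean was 8.55 ± 0.33 in deletion mice and 7.92 ± 0.27 in controls (SD, n = 8 each), a difference of 0.63 with a standard error of 0.14 and a 95% interval of 0.34 to 0.92 (limma, adjusted p = 0.0253). This is a 1.55-fold higher signal, with an interval of 1.27 to 1.89. An exact permutation test over all 12870 splits of the mice gave a two-sided p of 0.00109. The adjusted p was 0.0509, 0.0531 and 0.0517 without controls 3, 5 and 7, each left out alone, and the difference then was 0.63, 0.61 and 0.60.

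Rpl3l ran from 9.75 through a median of 9.90 to 10.13 in deletion mice and from 9.74 through 9.94 to 10.08 in controls. The groups overlapped almost fully. The mean was 9.91 ± 0.11 in deletion mice and 9.92 ± 0.12 in controls (SD, n = 8 each), a difference of -0.01 with a 95% interval of -0.15 to 0.13 (limma, adjusted p = 0.959). With the kept Rpl3 probe set, the responses of the paralogs differed: the within-mouse difference of Rpl3 and Rpl3l was 0.64 higher in deletion mice (exact permutation test, two-sided, p = 0.00124), and it lay above every control in 6 of 8 deletion mice. The smallest p these splits allow is 1.55e-04. With the mean of both Rpl3 probe sets that passed the signal filter, the difference of the responses was 0.33 (exact permutation test, p = 0.0165), and with the probe set among genes of the gene's own chromosome, an alternative added after seeing the data, it was 0.0092 (p = 0.946).

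**Figure D2:**
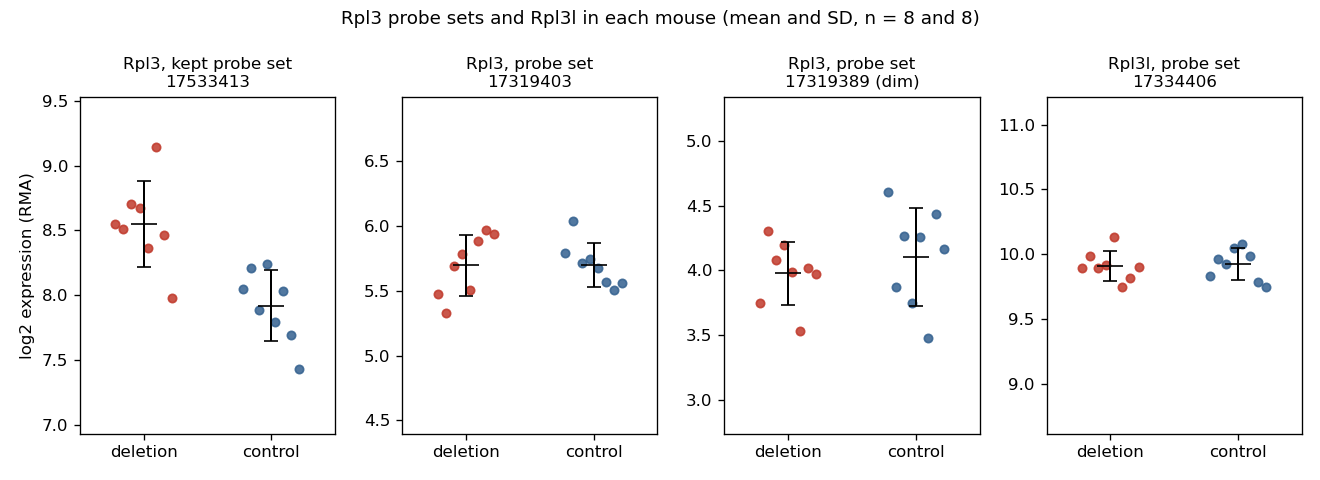
Log2 expression (vertical axis, each panel with its own range of equal height) of the 3 Rpl3 probe sets and of Rpl3l in each deletion and control mouse, with the mean and SD of each group of 8. The kept Rpl3 probe set averaged 8.55 in deletion mice and 7.92 in controls, while the means of probe set 17319403 were 5.70 and 5.70, and those of Rpl3l 9.91 and 9.92.

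The call for Rpl3 rests on 1 of 3 probe sets that carry its symbol. The kept one, 17533413, gave the values above. The other that passed the signal filter, 17319403, ran from 5.33 through 5.74 to 5.97 in deletion mice and from 5.50 through 5.70 to 6.04 in controls. Both groups averaged 5.70 (SD 0.24 in deletion mice and 0.17 in controls), and the interval of the difference was -0.21 to 0.21 (limma, adjusted p = 0.998). The third, 17319389, lay above the array median in only 1 array, with means of 3.98 in deletion mice and 4.10 in controls. The responses of the first pair differed by 0.63 (exact permutation test, two-sided, p = 0.00342), a comparison that was chosen after their values were seen.

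Probe set numbers on this array follow the genome closely: 99.6% of 22841 other probe sets with a single symbol lie, in number order, among genes of their own chromosome (at least 15 of the 20 nearest on 1 chromosome). Rpl3 is on chromosome 15, and probe sets 17319403 and 17319389 lie among chromosome 15 genes, with 20 of 20 neighbours there. Between them lies Snord83b, a small nucleolar RNA that is encoded in an intron of Rpl3, which averaged 5.56 in deletion mice and 5.47 in controls (difference 0.09, standard error 0.14, limma adjusted p = 0.794). The kept probe set 17533413 instead lies among genes of the X chromosome, again with 20 of 20 neighbours. Its nearest tested neighbours there are the deubiquitinase Usp9x, with a difference of -0.10 (limma, adjusted p = 0.493), and the RNA helicase Ddx3x, with 0.05 (0.789), and none of the 5 nearest on either side passed the test. Around the chromosome 15 probe sets, the RNA helicase Ddx17, the fifth tested gene before 17319389, passed it, with a difference of 0.31 (limma, adjusted p = 0.0234), and none of the others among the 5 nearest on either side of both did. The locus to which each probe set was designed was not analysed here, and neither were the probes' sequences.

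Markers of other cell types moved with the group in the same mice. Of 12 endothelial markers, 8 were higher in deletion mice at the same threshold, and the mean of the list ran from 7.60 to 8.15 in deletion mice and from 7.31 to 7.68 in controls. Of 12 macrophage and monocyte markers, 2 were higher, with list means of 6.25 to 7.47 in deletion mice and 6.02 to 6.63 in controls. Of 8 neutrophil markers, 4 passed the signal filter and 1 of these was higher, with list means of 4.64 to 5.90 in deletion mice and 4.50 to 4.75 in controls. The control means lay near the array medians, which ran from 4.43 to 4.61 over the arrays. Since the filter asks for 8 arrays, a marker could pass through the deletion mice alone, so this list is weak evidence of a shift. Within the deletion group, the order of the mice in Rpl3 matched none of these lists throughout. Deletion mouse 6, highest in Rpl3 at 9.15, had the highest neutrophil mean (5.90) but not the highest endothelial (7.99) or macrophage mean (6.73). Deletion mouse 8, lowest in Rpl3 at 7.98, had the lowest endothelial and macrophage means, 7.60 and 6.25, while the lowest neutrophil mean was in deletion mouse 7. Deletion mouse 5 had the highest endothelial mean, 8.15, with an Rpl3 value of 8.36 that only mouse 8 was below. Its macrophage mean of 6.38 was likewise above that of mouse 8 alone. Deletion mouse 3, at 8.70 in Rpl3, had an endothelial mean of 7.62 and the highest macrophage mean, 7.47. Deletion mouse 4, at 8.67 in Rpl3, had a macrophage mean of 6.48. Deletion mice 1, 2 and 7 were at 8.55, 8.51 and 8.46 in Rpl3. Their endothelial means were 7.95, 8.00 and 7.83, and their macrophage means 7.26, 6.53 and 6.61. The part of these cell types in the Rpl3 difference was not tested. In whole muscle a change in the number of cells of a type cannot be told apart from a change in RNA per cell.

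The remaining lists gave a call for 1 adipocyte marker only. None of 8 fibroblast markers changed, and none of the tested markers of lymphocytes (5 of 9), satellite cells (5 of 6), Schwann cells (4 of 6) or liver and plasma proteins (7 of 11) did. Of 6 adipocyte markers, 1 was higher. The lack of a call does not mean that these lists did not differ. All 4 Schwann cell markers were above 0 (median difference 0.687), as were all 7 liver and plasma protein genes (0.597). Above 0 were also 6 of 8 fibroblast (0.151) and 5 of 6 adipocyte markers (0.209). Of 5 lymphocyte markers 1 was above 0 (-0.0644), and of 5 satellite cell markers none (-0.166). The list means of the liver and plasma protein genes spread widely, from 4.75 to 8.58 in deletion mice and from 5.05 to 8.07 in controls. Albumin was high in deletion mice 1, 2, 4 and 5 and in controls 2 and 7. Without these 6 mice, an alternative added after seeing the data, the Rpl3 difference was 0.67 and its adjusted p 0.272, with 4 deletion mice and 6 controls left.

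The start of transcription of the ribosomal protein genes could be read for 41 of the 52, which matched a RefSeq promoter window (GRCm38.p6, 250 bases before to 50 after the annotated start). A run of at least 6 pyrimidines, C or T on the transcribed gene's strand, lay over the annotated start (its first base or the base before it) in 15 of the 41 (36.6%), against 12.8% of 10613 other tested genes. The letters CCGGAA, searched on both strands as was every motif here, were found in 23 of 41 windows (56.1%), against 27.8% of the other tested genes. The E-box letters CAGCTG were found in 3 of 41 (7.32%, against 18.8%), TATAAA in 3 (7.32%, against 9.44%) and AANATGGC in 6 (14.6%, against 8.95%). A match describes letters only, and absence from a window says no more than that. The starts of 6 of these 15 genes are printed as examples of such a run. Members with a window outside these 15 showed no run of that length at the annotated start. The 11 members without a window, Rpl3 and Rpl29 among them, could not be read. Each goes from 20 bases before to 20 after the first annotated base, with the run in capitals. The last line gives the paralog Rpl3l, from 100 bases before to 20 after, with no such run (its longest at the start was 4) and with its CAGCTG, 20 bases before the first annotated base, in capitals.
Rpl15 (chr14:18270967-18271006, minus strand): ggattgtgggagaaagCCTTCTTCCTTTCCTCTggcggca
Rpl28 (chr7:4792945-4792984, plus strand): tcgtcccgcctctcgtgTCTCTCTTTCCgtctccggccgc
Rpl35 (chr2:39005112-39005151, minus strand): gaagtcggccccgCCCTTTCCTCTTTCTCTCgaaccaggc
Rpl38 (chr11:114668560-114668599, plus strand): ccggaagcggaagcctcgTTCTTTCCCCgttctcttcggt
Rps6 (chr4:86857348-86857387, minus strand): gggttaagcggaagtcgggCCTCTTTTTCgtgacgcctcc
Rps10 (chr17:27635225-27635264, minus strand): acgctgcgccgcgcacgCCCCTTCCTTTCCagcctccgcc
Rpl3l (chr17:24727726-24727845, plus strand): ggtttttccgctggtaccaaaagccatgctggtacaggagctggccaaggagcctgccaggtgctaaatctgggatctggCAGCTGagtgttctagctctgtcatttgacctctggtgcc

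The genes printed with a long tract did not pass the test. Rpl15 averaged 11.63 in deletion mice and 11.57 in controls, Rpl28 11.20 and 11.17, and Rps10 6.32 and 6.22, with limma adjusted p-values of 0.649, 0.795 and 0.569. Rpl35 averaged 10.32 in deletion mice and 10.20 in controls (difference 0.12, standard error 0.06, limma adjusted p = 0.332), and Rpl38, which in mouse embryos is needed for the translation of a subset of Hox messenger RNAs, ran from 9.86 to 10.31 in deletion mice and from 9.79 to 10.14 in controls (difference 0.09, standard error 0.07, 0.530). In all of them the groups overlapped, with 4 of 8 deletion mice above every control for Rpl35 and 3 for Rpl38.

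Among the other large-subunit genes, Rpl29, a surface protein of the large subunit, came closest to the threshold. It ran from 10.58 through 10.74 to 10.89 in deletion mice and from 10.40 through 10.56 to 10.64 in controls. The groups overlapped little, with 6 of 8 deletion mice above every control. At least 6 of 8 deletion mice did so for 436 of all genes (3.21%) and for 2 of the 52, Rpl3 and Rpl29. The Rpl29 difference was 0.21 with a standard error of 0.06 (limma, adjusted p = 0.108). A dim Rpl29 probe set, 17521204, pointed the other way, with means of 3.60 in deletion mice and 3.89 in controls. It lies among genes of the gene's own chromosome, was above the array median in no array and was not tested. Complete separation, with all 8 deletion mice above every control, was seen for 33 of all genes (0.243%) and for none of the 52, and the reverse for 15 (0.110%) and none.

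Rpl32, often used as a reference gene, ran from 8.96 to 9.34 in deletion mice and from 8.58 to 9.16 in controls, a difference of 0.19 with a standard error of 0.08 (limma, adjusted p = 0.209). Rpl7a ran from 9.97 to 10.24 in deletion mice and from 9.75 to 10.09 in controls (difference 0.13, standard error 0.06, 0.271). Rpl19 ran from 10.64 to 11.05 in deletion mice and from 10.43 to 10.85 in controls (difference 0.16, standard error 0.08, 0.287). In each of these the groups overlapped, with 2, 4 and 4 deletion mice above every control. On the other side, Rpl26, which in human cells also binds p53 messenger RNA, averaged 4.98 ± 0.22 in deletion mice and 5.11 ± 0.11 in controls, and Rpl34 6.49 ± 0.32 and 6.64 ± 0.13 (SD, n = 8 each), with differences of -0.13 and -0.15 and limma adjusted p-values of 0.475 and 0.532.

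The stalk of the large subunit, which recruits elongation factors, is built from Rplp0, Rplp1 and Rplp2. Rplp1 ran from 9.79 through 10.32 to 10.53 in deletion mice and from 9.59 through 10.08 to 10.42 in controls. Its spread was wide in both groups and its difference of 0.21 had a standard error of 0.12 (limma, adjusted p = 0.365). Rplp0, the base of the stalk, averaged 7.99 ± 0.18 in deletion mice and 7.88 ± 0.15 in controls (SD, n = 8 each), a difference of 0.11 with an adjusted p from limma of 0.521. Rplp2 lay under the array median in all 16 arrays, at 3.87 in deletion mice and 3.77 in controls, and was not tested.

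Among the small-subunit genes, Rpsa, whose protein has also been described as a laminin receptor, averaged 9.18 ± 0.27 in deletion mice and 9.02 ± 0.21 in controls (SD, n = 8 each), a difference of 0.16 with an adjusted p from limma of 0.492. Rps4l, a paralog of the X-linked Rps4x, had the only unadjusted p under 0.05 among the genes that were lower. It ran from 4.77 through 4.96 to 5.14 in deletion mice and from 4.81 through 5.17 to 5.70 in controls, and 1 deletion mouse lay below every control. The difference was -0.26 with a standard error of 0.11 (limma, adjusted p = 0.255). Rps4x itself averaged 9.98 in deletion mice and 9.88 in controls (difference 0.10, 0.556).

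Rps16 had the largest negative difference of the 52, -0.34 with a standard error of 0.17 (limma, adjusted p = 0.329). It ran from 4.39 through 5.11 to 5.70 in deletion mice and from 5.05 through 5.46 to 5.86 in controls, with 4 deletion mice below every control and the other 4 inside the control range. Rps24, a gene mutated in some patients with Diamond-Blackfan anaemia, ran from 8.82 to 9.49 in deletion mice and from 9.13 to 9.77 in controls, a difference of -0.15 with a standard error of 0.10 (limma, adjusted p = 0.488). Rps6, the classic substrate of S6 kinase downstream of mTOR, averaged 11.64 ± 0.12 in deletion mice and 11.56 ± 0.07 in controls (SD, n = 8 each), a difference of 0.08 (0.501).

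The probe sets with the highest signal, which need not be the most abundant messenger RNAs, were those of Rpl21, Rpl4 and Rps6. Rpl21 averaged 12.56 in deletion mice and 12.49 in controls (difference 0.08, limma adjusted p = 0.551). Rpl4, which lines the exit tunnel of the nascent peptide, averaged 12.09 ± 0.05 in deletion mice and 12.07 ± 0.04 in controls (SD, n = 8 each), and its within-group SD of 0.0491 was the smallest of the 52. The interval of its difference was -0.08 to 0.12 (limma, adjusted p = 0.885). The dimmest were Rpl39l, which in mouse is a testis-enriched paralog of Rpl39, with 4.87 in deletion mice and 4.91 in controls, Rpl37a with 4.91 and 4.86, and Rpl5 with 4.74 and 4.75. Rpl5, which with Rpl11 and 5S RNA binds Mdm2, was also the member nearest to the signal filter, above the array median in 11 arrays, while 47 of the 52 were above it in all 16.

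The 12 genes under the filter were Rpl10l, Rpl11, Rpl17, Rpl27a, Rpl30, Rpl32l, Rpl37, Rpl39, Rplp2, Rps14, Rps15 and Rps20. The nearest of them was Rps14, above the median in 3 arrays, at 4.22 in deletion mice and 4.21 in controls. Rpl27a, Rpl30 and Rpl39 were above it in 2 arrays each, with differences of 0.08, -0.17 and 0.10. These proteins are part of the ribosome as well, and what sets the low signal of their probe sets was not analysed here. Of 57 probe sets that carry several symbols with a ribosomal one among them, 47 passed the filter. The difference was above 0 for 36 of these, beside 50.2% of all genes tested, and ran from -0.131 to 0.494 with a median of 0.0857. These probe sets were not tested.

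Probe sets of 1 gene did not always point the same way. Of 15 genes with 2 or more different probe sets above the filter, all pointed in 1 direction for 9, and for 6 they did not: Rpl3, Rpl4, Rpl41, Rplp0, Rplp1 and Rps24. For Rps24 the differences were -0.15, 0.04 and 0.20, for Rplp0 0.11 and -0.17, for Rplp1 0.21 and -0.05, and for Rpl4 0.02 and -0.11. The 5 probe sets of Rpl41 ran from -0.03 to 0.19. Direction here is the sign alone, and the lower Rpl3 difference was -0.00085. Some of these probe sets were also dim. The Rps24 one at 0.20 was above the array median in 9 arrays and the Rplp1 one at -0.05 in 8. Rpl7a, with 3 probe sets between 0.10 and 0.14, and Rpsa, with both at 0.16, were among those that agreed in sign. When every probe set was tested separately, 269 of 14246 (1.89%) passed, and the kept one of Rpl3 was the only ribosomal probe set among them.

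Other ribosomal probe sets also lay among genes of another chromosome. Of 98 ribosomal probe sets that could be placed by their neighbours, 34 lay among genes of another chromosome and 64 among genes of their own. Among the kept probe sets, 17 lay among genes of another chromosome, and the differences of 16 of these were above 0 with a median of 0.0827. The 31 among genes of their own chromosome had 21 above 0 and a median of 0.0585, and 4 could not be placed. The 17 also had higher signals than the 31, with list means of 9.83 and 7.46 in deletion mice, so place and signal were not separated here. With the choice limited to probe sets among genes of their own chromosome, 40 genes were left and none passed the test. Of these 40, 28 were above 0, beside 50.1% of all genes, and the median difference was 0.0599. This alternative was added after seeing the data. Rpl29, Rpl7a and Rpl19 were among the 17, and Rpl32, Rps4l and Rps16 among the 31.

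**Figure D3:**
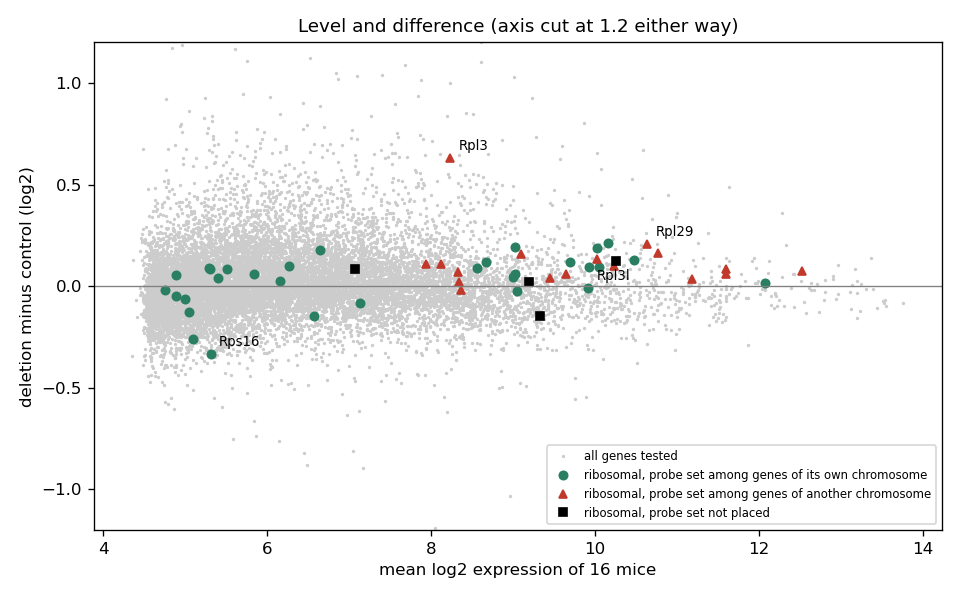
Difference (log2, deletion minus control, vertical axis) against mean log2 expression of the 16 mice (horizontal axis) for all genes tested (grey) and for the 52 ribosomal protein genes, marked by where their probe set lies in number order. The ribosomal genes at a mean of 8 or more lie mostly above 0, with a median of 0.0914, and Rpl3 lies above the rest of them.

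The members were also described by signal, with no test between the bright and the dim ones. The 33 ribosomal genes with a mean of 8 or more had 29 differences above 0 and a median of 0.0914, while 2124 other genes at that signal had a median of -0.0205 with 43.2% above 0. The 19 ribosomal genes under 8 had 11 above 0 and a median of 0.0415, while 11425 other genes had 0.00440 with 51.4% above 0. Their spread within groups was like that of other genes, with a median SD of 0.143 for the ribosomal genes at 8 or more (0.142 for other genes) and 0.200 for those under 8 (0.186).

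The shift was within the spread between mice. The mean of the 52 genes ran from 8.23 through 8.34 to 8.52 in deletion mice and from 8.11 through 8.32 to 8.38 in controls, and averaged 8.35 ± 0.11 in deletion mice and 8.29 ± 0.09 in controls (SD, n = 8 each). In 4 deletion mice it lay above every control and in the other 4 it lay inside the control range. Deletion mouse 6 was highest at 8.52 and control 8 lowest at 8.11. Without control 8 the median difference of the 52 genes was 0.0380, with 36 above 0, beside 50.1% of all genes. When each array was centred on the median of the genes tested, the median of all genes moved to -0.0523 and that of the 52 to 0.0214. In that setting 32 of the 52 were above 0, beside 35.1% of all genes, so both sets moved down together.

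**Figure D4:**
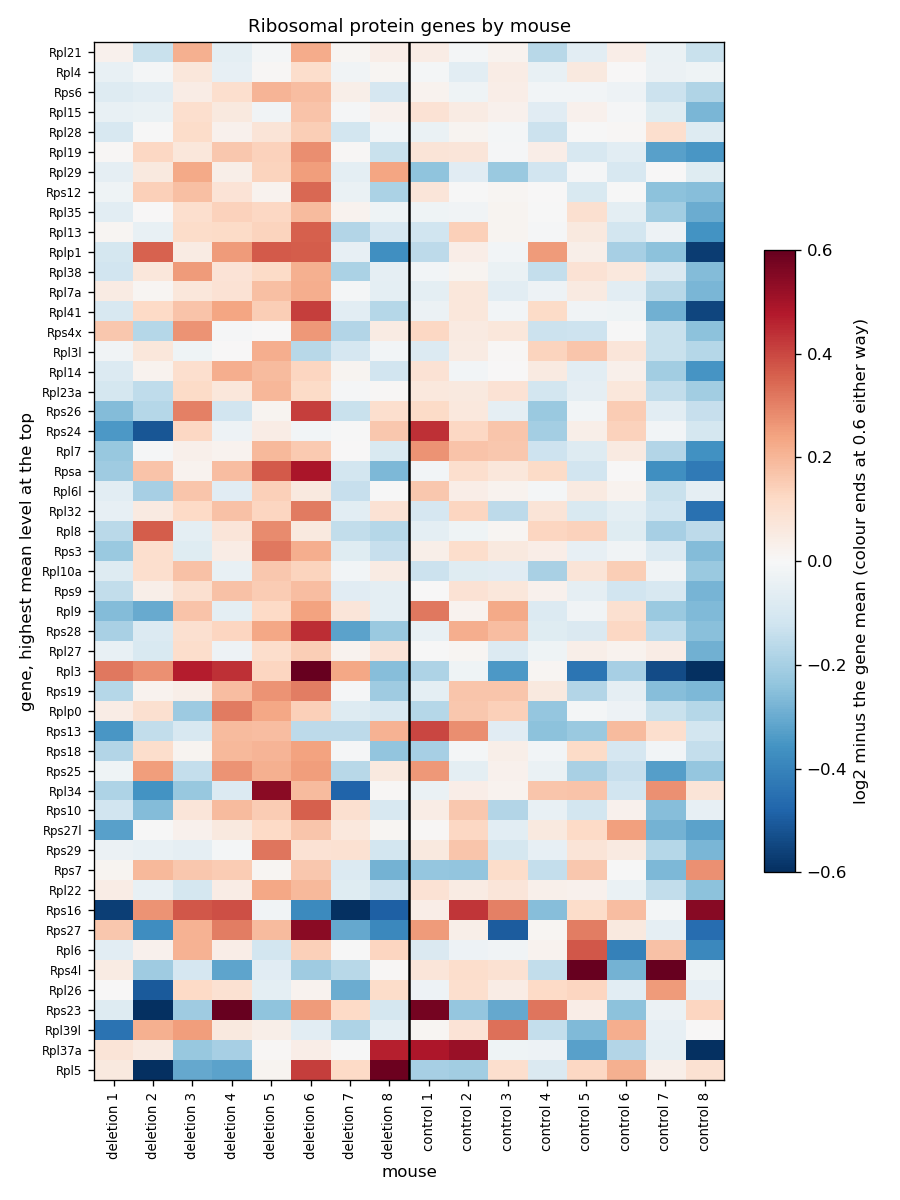
Log2 expression of the 52 ribosomal protein genes (rows, highest mean signal at the top) in each of 8 deletion and 8 control mice (columns), as the difference from the gene's mean over all mice, with the colour ending at 0.6 either way. Most rows are above their mean in deletion mouse 6 and below it in control 8, and the Rpl3 row is above its mean in 7 deletion mice.

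The ribosomal protein genes varied together from mouse to mouse within groups. Over the 1326 pairs of the 52 genes, the median Pearson correlation of their deviations from the group means across the 16 mice was 0.360, and 1135 pairs were above 0. It was 0.374 within the large subunit and 0.335 within the small subunit. Among the 33 genes with a mean of 8 or more it was 0.538, and among the 19 dimmer ones 0.0967. The kept probe sets among genes of another chromosome had a median of 0.583 and those among genes of their own 0.251. The same median correlation was 0.363 for the 68 mitochondrial ribosomal protein genes and 0.217 for the 35 proteasome genes. Within groups, the kept Rpl3 probe set correlated at 0.651 with the mean of the other members and at 0.0383 with Rpl3l. Its correlation was 0.265 with Rpl3 probe set 17319403 and -0.415 with the dim 17319389. What sets these values was not tested. These are descriptions, since pairs share mice, arrays and normalization, and closely related copies can share probes.

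Other genes named as paralogs of a ubiquitous ribosomal protein were measured besides Rpl3l. Rpl6l averaged 9.04 in deletion mice and 9.07 in controls (difference -0.03), and Rps27l, a p53 target in human cells, 6.16 and 6.14 (difference 0.03), with limma adjusted p-values of 0.879 and 0.904. Of ribosomal genes whose names fall outside the rule, 3 of 4 were tested and none changed. Fau, whose product is cut into a small-subunit protein and a ubiquitin-like one, averaged 9.62 ± 0.20 in deletion mice and 9.38 ± 0.23 in controls (SD, n = 8 each; difference 0.23, limma adjusted p = 0.254), while the differences of Rpl7l1 and Rps3a1 were 0.11 and -0.03.

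The genes that build and use ribosomes were read from lists, each judged against the 1.83% of all genes that changed. Of 15 genes of the RNA polymerase I machinery, which makes ribosomal RNA, 1 rose and none fell. This was Taf1d, a subunit of the selectivity factor that brings the polymerase to ribosomal DNA. It ran from 8.53 through 9.02 to 9.58 in deletion mice and from 7.97 through 8.46 to 8.65 in controls, with 7 of 8 deletion mice higher than any control. The difference was 0.65 with a standard error of 0.14 (limma, adjusted p = 0.0237). The rest of the list had differences of both signs, among them 0.18 for Taf1b and -0.18 for Taf1a, subunits of the same factor, and -0.09 for Rrn3, and the median over the 15 was 0.0186 with 9 above 0.

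No gene passed the test in the other lists. Of 79 ribosome biogenesis genes, 38 differences were above 0, with a median of -0.00214. The smallest p-values there belonged to Utp11 (difference 0.18) and Sbds (0.19), which matures the large subunit, and to Krr1 (-0.16) and Gnl2 (-0.15), with adjusted p-values from limma of 0.168, 0.173, 0.178 and 0.253. Of 42 initiation factors 18 were above 0, with a median of -0.0105. Eif4a1, the helicase that unwinds the start of messenger RNAs, had a difference of 0.36 and the scanning factor Eif1ax one of -0.19 (limma adjusted p = 0.272 and 0.180). Of 17 elongation and termination genes 10 were above 0, with a median of 0.0105. Eef1a1, which delivers aminoacyl-tRNA, had a difference of 0.21 and the ribosome recycling factor Abce1 one of -0.14 (0.280 and 0.305).

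Of 18 genes that link growth signals to ribosomes, 6 were above 0, with a median of -0.0275. Mxd4, a repressor that competes with Myc for Max, averaged 7.20 ± 0.27 in deletion mice and 6.86 ± 0.14 in controls (SD, n = 8 each), a difference of 0.34 with an adjusted p from limma of 0.0989. For Max the difference was 0.18, and for Akt1s1, an inhibitor of mTOR complex signalling, -0.16 (0.304 and 0.388). Of 68 mitochondrial ribosomal proteins 20 were above 0, with a median of -0.0403, and Mrps22 had the smallest p (difference -0.19, 0.141). Of 35 proteasome subunits 20 were above 0, with a median of 0.00827, and Psmd8 had the smallest p (difference 0.20, 0.211). These medians are set beside the 0.0744 of the cytosolic ribosomal genes as values, and no test was made between lists.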

How the data were processed

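Expression was measured with 1 array per mouse, from 250 ng of total RNA made into biotin-labelled cRNA, per the labels. The deposited table holds 1 log2 value for each probe set and mouse, and per the submitters' processing notes the authors used RMA and the oligo package, whose versions are not given there; that the scale is log2 follows from the range of the values. The array annotation gave 1 symbol to 23521 of 41345 probe sets, several to 1814 and none to 16010. Scan dates were not used here, so no scan batch was examined. RMA makes the distributions of the arrays alike, which hides any change that all transcripts share. Probe sets differ in binding, so their signals are not set against each other as amounts. Precision is limited by the number of mice, and the labels call each mouse a biological replicate.

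Samples were grouped by title and genotype label, 8 and 8. All columns were matched to a mouse. Single-symbol probe sets were kept if they exceeded the median of their array in 8 or more of the 16, the highest on average per gene, and fitted with limma 3.58.1 in R 4.3.3 (lmFit and eBayes, two-sided, Benjamini-Hochberg). The fit was tested on simulated data. Named were Rpl3, Rpl3l, members past the threshold, the 5 with the smallest p each way, the 3 brightest and dimmest, those whose probe sets disagreed with 1 past the threshold, those beside the filter, the stalk proteins and Rpsa, and up to 2 genes each way per companion list; other members and genes were named after their values were seen. The members, lists and tests were chosen with earlier results of these data known. Mice that share a replicate number did not vary together: the correlation of their deviations ran from -0.0828 to 0.250 over 8 pairs, and 1 deletion mouse was closest to its own number, so the fit has no block. Promoter windows and chromosomes come from RefSeq. Alternatives were other filters, scalings, probe set choices, variance models, a liver covariate, array weights, a replicate block, another threshold, each mouse left out, own-chromosome probe sets and the mice without high albumin.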

Additional observations from a re-analysis of the deposited data

Results flagged for a closer look

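Of 46 groups of 8 values examined for a single mouse far from the others, 1 was marked, and chance marks about 1 in 20. The Rpl37a value of deletion mouse 8 was 5.35, and the next highest deletion mouse was at 4.96, a gap of 0.564 of the whole range of the group. The controls ran from 4.28 to 5.40 for this gene, so the value lay inside their range. Rpl37a, a large-subunit protein gene, is among the dimmest of the genes tested here, and without deletion mouse 8 its difference was -0.01 in place of 0.05.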

How the results depend on the processing

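With 8 mice a group, the number of ribosomal protein genes changed was 1 in the reported fit and in 10 of 13 other settings. It was 0 with all passing probe sets of a gene averaged, with own-chromosome probe sets and without the 6 mice with high albumin (the last 2 added after seeing the data), and 0 to 1 with each mouse left out in turn. The Rpl3 difference was 0.31 (limma adjusted p = 0.111) with the mean of its probe sets, -0.00085 (0.998) with the own-chromosome probe set and 0.67 (0.272) without the high-albumin mice. It was 0.55 to 0.71 with each mouse left out, with adjusted p-values of 0.00391 to 0.0531, and from 0.0107 to 0.0492 under the other 10 settings. That of Rpl3l was -0.0422 to 0.0130 with each mouse left out, turning above 0 without controls 4 and 5 and deletion mice 6 and 7. The difference of the paralogs' responses was 0.33 (exact p = 0.0165) with the mean of its probe sets, 0.0092 (0.946) with the own-chromosome probe set of Rpl3, and 0.53 to 0.72 with each mouse left out. The members' median difference stayed above 0, at 0.0380 to 0.0826 with each mouse left out and 0.0214 to 0.0884 otherwise. With the replicate block, the count was 1, the median 0.0744, the Rpl3 limma adjusted p 0.0107 and the paralog contrast 0.64 (exact sign-flip test, p = 0.00781). The block changed no call among the ribosomal protein genes, while 213 of all genes changed in place of 249. Signs turned for Rpl4 (-0.0352 centred, -0.0453 with the mean of probe sets), Rps24 (0.0286 with the mean, 0.20 with own-chromosome probe sets), Rplp0 (-0.0322 and -0.17) and Rpl5 (0.0077 with array weights, 0.0509 with the liver covariate, 0.16 without high-albumin mice), and with single mice left out for Rpl39l (-0.0875 to 0.0137), Rpl37a (-0.0289 to 0.131) and Rpl5 (-0.101 to 0.0734). Of all genes, 249 changed; 137 did so without the filter, 505 at an adjusted p under 0.10, 131 with the liver covariate, 7 without the high-albumin mice, 680 without deletion mouse 8 and 107 to 680 with each mouse left out. The causes were not tested.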
